A study of Mus musculus with 16 samples.

Results

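The genes described here are 34 genes of fatty acid uptake and oxidation, each the single row of that name among 16118 genes in a table of 16 mouse heart libraries. They were chosen by name as uptake proteins, carnitine shuttle enzymes, enzymes of mitochondrial beta-oxidation, the electron transfer flavoprotein system and regulators of fatty acid supply. The rule of choice used no measured value, but earlier results of these data were known when it was made. Polyadenylated RNA of atria and ventricles came from 8 adult male littermates, 4 per genotype, harvested 2 weeks after tamoxifen. All 8 carried floxed alleles of Meis1 and of Meis2 on both chromosomes. The idKO mice also carried 1 copy of α-MHC-MerCreMer, a Cre recombinase driven by the cardiomyocyte promoter α-MHC and switched on by tamoxifen, and control mice lacked it, so any effect of the transgene itself is part of each idKO difference. The groups were idKO atrium, control atrium, idKO ventricle and control ventricle, with 4 libraries each, and the atrium and the ventricle of a mouse bear the same replicate number.

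Heart muscle oxidises long-chain fatty acids as a main fuel. Lipoprotein lipase frees them from circulating triglyceride, CD36 and binding proteins bring them in, an acyl-CoA synthetase activates them, and the carnitine shuttle passes them into mitochondria, where beta-oxidation shortens the chain step by step. The acyl-CoA dehydrogenases hand their electrons to the electron transfer flavoprotein, and malonyl-CoA holds the shuttle back by inhibiting its first enzyme, CPT1. Transcription of many of these genes is driven by PPARα, the oestrogen-related receptors and their coactivator PGC-1α.

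Reads in genes ran from 13.1 to 21.8 M per library. A value is a normalised read count, that is, reads divided by an effective library size (in mega reads) that the authors' scaling set. That effective size averaged 0.958 of the reads in idKO atria, 0.947 in control atria, 0.687 in idKO ventricles and 0.639 in control ventricles, so a value is not a plain share of the reads and the scaling bears on each comparison below. Meis2 fell in idKO ventricles to 8.82 ± 0.848 against 26.8 ± 4.24 in control ventricles (SD, n = 4 each; 33.0% of control; limma adjusted p = 2.0e-05). It was not called in atria, at 17.7 ± 1.64 in idKO mice and 20.0 ± 1.48 in controls (limma adjusted p = 0.966). Meis1 was not called in either chamber. In ventricles it measured 23.1 ± 2.29 in idKO mice and 27.3 ± 0.767 in controls (SD, n = 4 each; 84.5% of control; limma adjusted p = 0.236). The exact permutation test gave p = 0.0286 in ventricles, the smallest value it can reach here, for Meis1 and for Meis2 alike. In atria the exact permutation test gave p = 0.514 for Meis1 and the exact permutation p for Meis2 was 0.0571. The labels do not name the floxed exons, and gene totals may count transcripts of deleted alleles, so the values of Meis1, and of Meis2 in atria, do not show how much of the gene was deleted. Esr1, part of which is built into MerCreMer, measured 3099 ± 574 in idKO ventricles and 186 ± 95.5 in idKO atria, so the transgene was read far less in atria. The 10 cardiomyocyte markers were present in every library, with summed values of 72241 to 87628 in atria and 102997 to 125650 in ventricles.

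**Figure D1:**
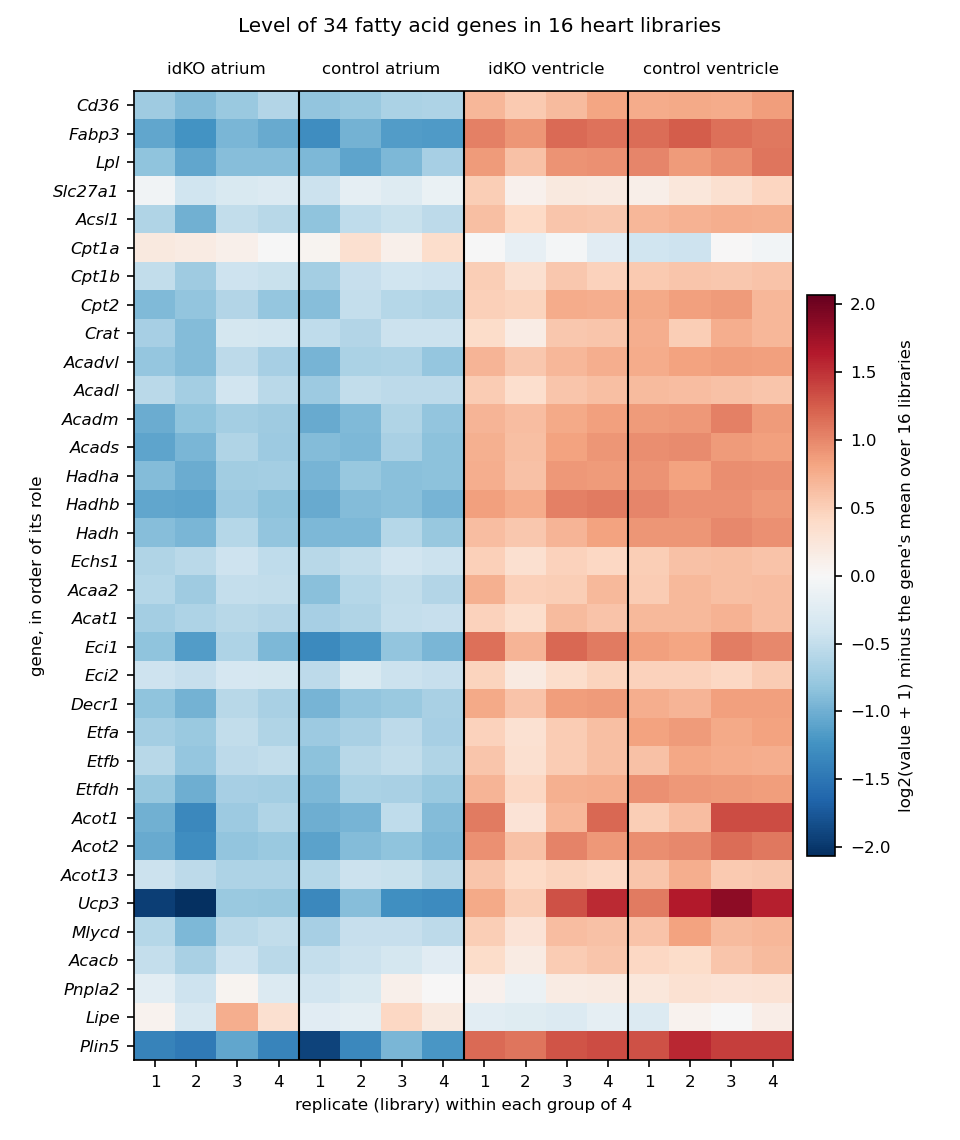
Level of the 34 genes (rows, grouped by role) in 16 libraries (columns, 4 per group), as log2(value + 1) minus the gene's own mean over the 16 libraries. Ventricles are red and atria blue for nearly all rows, Cpt1a and Lipe are the exceptions, and idKO ventricle replicate 2 is paler than the other ventricles in 32 of 34 rows.

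Per kilobase of annotated exons, the most abundant of the 34 in control ventricles was Fabp3, the heart fatty acid binding protein that carries fatty acids through the cytosol. It stood at 5872 ± 277 normalised reads per kilobase there (SD, n = 4), and next came Acaa2, the mitochondrial 3-ketoacyl-CoA thiolase, at 891 ± 38.9. The 3 lowest were Lipe, hormone-sensitive lipase, at 11.8 ± 1.47, Cpt1a, the liver isoform of CPT1, at 10.2 ± 1.64, and the cytosolic thioesterase Acot1 at 6.43 ± 2.0. In control atria Fabp3 again came first, at 1185 ± 106, followed by Acaa2 at 374 ± 39.1, and Acot1 came last. The exon length depends on how many annotated transcripts are merged: with the longest transcript alone, Acaa2 moved from rank 2 to rank 5 in control ventricles, and Fabp3 stayed first and Acot1 last. Acot1 and Acot2 are near-identical neighbours on chromosome 12, so their reads were divided between them by estimation and their separate levels are uncertain. Together the 34 genes took 1.24 ± 0.0871% of the reads in genes in idKO atria, 1.23 ± 0.0533% in control atria, 2.46 ± 0.101% in idKO ventricles and 2.51 ± 0.0693% in control ventricles (SD, n = 4 each).

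Atria held less transcript of almost every gene in the set than ventricles did. In control mice 32 of the 34 were called lower in atria, 1 was called higher (Cpt1a) and 1 did not pass (Lipe), where a call is a limma adjusted p under 0.05 over all genes tested. The background was broad, with 28.7% of 14871 genes called lower and 28.2% called higher. The median log2 fold change of the 34 was -1.47, beside 0.02 over all genes tested, and 28 of the 34 had atrial levels at or below 50% of the ventricular level (log2 fold change of -1 or below), as had 5.88% of all genes. In idKO mice 32 were called lower and 1 higher (Lipe), beside a background of 27.1% lower and 26.8% higher, and the median was -1.30. Markers of other cell types differed between the chambers as well. In control atria 8 of 8 fibroblast markers were called higher than in control ventricles (median log2 fold change 0.95). So were 6 of 6 mesothelial markers (3.19) and 8 of 8 adipocyte markers (3.88), while 8 of 10 cardiomyocyte markers were called lower (-0.79). Other lists were less uniform: 3 of 8 endothelial markers were called higher and 4 lower, and 3 of 7 smooth muscle markers higher and 1 lower. Of 7 macrophage markers 3 were called higher, as were 4 of 5 lymphocyte markers, and 0 lower in either list. The fibroblast sum was 3675 to 5214 in control atria, against 2128 to 2418 in control ventricles, and the mesothelial sum was 299 to 398 in control atria, against 27.1 to 35.9 in control ventricles. The part of these cells in the gap was not tested. In bulk tissue, fewer cells of a type and less RNA per cell cannot be told apart.

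The chamber gap depends on the scaling. When values were taken as a share of the reads in genes, the median of all genes moved to 0.51 in control mice, with 66.4% called higher in atria and 9.33% lower. The median of the 34 genes was then -0.91, and 30 of the 34 were called lower and 2 higher (Cpt1a and Lipe). In idKO mice that scale called 62.2% of all genes higher and 10.4% lower, and of the 34 genes 30 lower and 2 higher, with a median of -0.82. Values were also scaled to the sum of 10 cardiomyocyte markers, whose level was itself lower in atria. Then 30 of the 34 were called lower in each genotype, with medians of -0.89 in control and -0.74 in idKO mice. Over all 14871 genes that scale called 9835 higher and 1286 lower in control mice, with a median of 0.54. In idKO mice it called 9826 higher and 1287 lower, with a median of 0.52. The 2 genes whose direction turned were Slc27a1 and Pnpla2, described below.

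Of the uptake genes, Fabp3 (ENSMUSG00000028773, GRCm38 chromosome 4, 130308595 to 130315463) differed most. It measured 884, 1094, 968 and 955 in the 4 control atria, against 4807, 5151, 4761 and 4612 in the 4 control ventricles. The groups stood far apart, and atria averaged 20.2% of ventricles (log2 fold change -2.31 ± 0.08 SE, limma adjusted p = 2.3e-14). Lpl, lipoprotein lipase, was at 1771, 1578, 1773 and 2086 in the 4 control atria, against 6768, 6191, 6524 and 7249 in control ventricles, with a log2 fold change of -1.89 ± 0.09 SE. Cd36, the fatty acid translocase of the plasma membrane, averaged 964 ± 60.4 in control atria and 2748 ± 89.0 in control ventricles (SD, n = 4 each; log2 fold change -1.51). Slc27a1, a fatty acid transport protein, had a small gap, at 162 ± 14.8 in control atria and 236 ± 23.3 in control ventricles (log2 fold change -0.54, limma adjusted p = 8.8e-05). On the share of reads that gap was 0.02 (adjusted p = 0.824), so for Slc27a1 the call rests on the scaling.

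The carnitine shuttle showed the clearest contrast within the set, between the 2 CPT1 genes. Cpt1b (ENSMUSG00000078937, chromosome 15, 89416405 to 89425863), the muscle isoform, measured 388, 457, 473 and 470.0 in the 4 control atria, against 924, 943, 936 and 957 in control ventricles. Cpt1a (ENSMUSG00000024900, chromosome 19, 3322334 to 3385733), the liver isoform, went the other way, with 94.0, 114, 96.6 and 116 in the 4 control atria, against 67.6, 66.8, 90.7 and 86.8 in control ventricles. No control atrium overlapped a control ventricle for either gene, with a log2 fold change of -1.07 ± 0.07 SE for Cpt1b (limma adjusted p = 3.2e-10) and of 0.43 ± 0.10 SE for Cpt1a (limma adjusted p = 0.00101). The lowest control atrium of Cpt1a, at 94.0, stood only just above the highest control ventricle, at 90.7. In idKO mice Cpt1a measured 104, 101, 96.5 and 90.0 in atria, against 89.6, 80.2, 87.1 and 76.1 in ventricles. The groups again did not overlap, but the limma call was missed (log2 fold change 0.23 ± 0.10 SE, adjusted p = 0.0555). With the mouse as a block it was called (adjusted p = 0.0195 with a fixed effect), as it was by edgeR (0.0421) and DESeq2 (0.0410). The ratio of Cpt1b to Cpt1a reads, which no library scaling can move, was 4.29, 3.78, 4.85 and 5.10 in idKO atria, 4.13, 4.01, 4.89 and 4.07 in control atria, 10.04, 9.90, 10.6 and 11.53 in idKO ventricles and 13.7, 14.1, 10.3 and 11.0 in control ventricles. The muscle isoform therefore led in every library, and its lead was wider in each ventricle than in any atrium. The predicted gene Gm44502 shares 2744 of the 3372 annotated exon bases of Cpt1b on the same strand, and reads there cannot be told apart.

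Acsl1, the main acyl-CoA synthetase of heart, Cpt2, the inner-membrane carnitine palmitoyltransferase, and Crat, carnitine acetyltransferase, were all lower in control atria, with log2 fold changes of -1.31, -1.44 and -1.18. The carnitine-acylcarnitine carrier Slc25a20, which is not among the 34 genes and sits between CPT1 and CPT2, measured 89.1 ± 13.3 in control atria and 285 ± 12.4 in control ventricles (SD, n = 4 each; log2 fold change -1.68, limma adjusted p = 2.4e-11).

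All 13 dehydrogenases, trifunctional protein subunits, hydratases, thiolases, isomerases and reductases of the beta-oxidation spiral were called lower in control atria, and all 13 in idKO atria. Among the 4 acyl-CoA dehydrogenases, which open each round for chains of different length, the log2 fold changes in control mice were -1.77 for Acadm (medium chain), -1.75 for Acads (short chain), -1.59 for Acadvl (very long chain) and -1.21 for Acadl (long chain). Acadm measured 490.3, 539, 660.3 and 574 in the 4 control atria, against 1852, 1889, 2089.6 and 1857 in control ventricles. Hadha and Hadhb encode the α and β subunits of the trifunctional protein and lie head to head on chromosome 5. Hadha averaged 729.7 ± 36.6 in control atria and 2509 ± 95.8 in control ventricles, and Hadhb 872 ± 47.2 in control atria and 3216 ± 96.7 in control ventricles (SD, n = 4 each). The smallest gaps in the spiral were those of Eci2, an enoyl-CoA isomerase also present in peroxisomes (-0.92), and Echs1, the short-chain enoyl-CoA hydratase (-1.06). Eci1, the mitochondrial isomerase that handles double bonds of unsaturated chains, had one of the widest, at 83.2, 91.1, 118 and 108 in the 4 control atria, against 376, 368, 434 and 416 in control ventricles (log2 fold change -1.99 ± 0.12 SE).

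The electron transfer flavoprotein genes Etfa and Etfb and its ubiquinone oxidoreductase Etfdh were lower in atria of both genotypes, with log2 fold changes of -1.50, -1.37 and -1.65 in control mice. Among the thioesterases, which cleave acyl-CoA, Acot2 had a log2 fold change of -1.99 and Acot13 of -1.12 in control mice. Mlycd, malonyl-CoA decarboxylase, which removes the CPT1 inhibitor, and Acacb, the mitochondrial acetyl-CoA carboxylase that makes it, were both lower in control atria (-1.24 and -0.89).

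The widest gaps of the set were those of Plin5, which coats lipid droplets and tethers them to mitochondria, and Ucp3, an uncoupling protein of the mitochondrial inner membrane. Plin5 measured 20.5, 31.3, 41.0 and 34.2 in the 4 control atria, against 200.1, 238, 217 and 216 in control ventricles. That is a log2 fold change of -2.78 ± 0.14 SE (limma adjusted p = 6.5e-12), with atria at 14.6% of the ventricular mean. Ucp3 measured 18.4, 25.6, 19.3 and 18.9 in the 4 control atria, against 102, 150.3, 175 and 148 in control ventricles (log2 fold change -2.73 ± 0.27 SE). In idKO mice Ucp3 read 11.7, 10.6, 27.5 and 27.2 in atria, against 83.2, 68.1, 120.2 and 141 in ventricles, so the animals of that genotype differed more among themselves than controls did in atria.

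**Figure D2:**
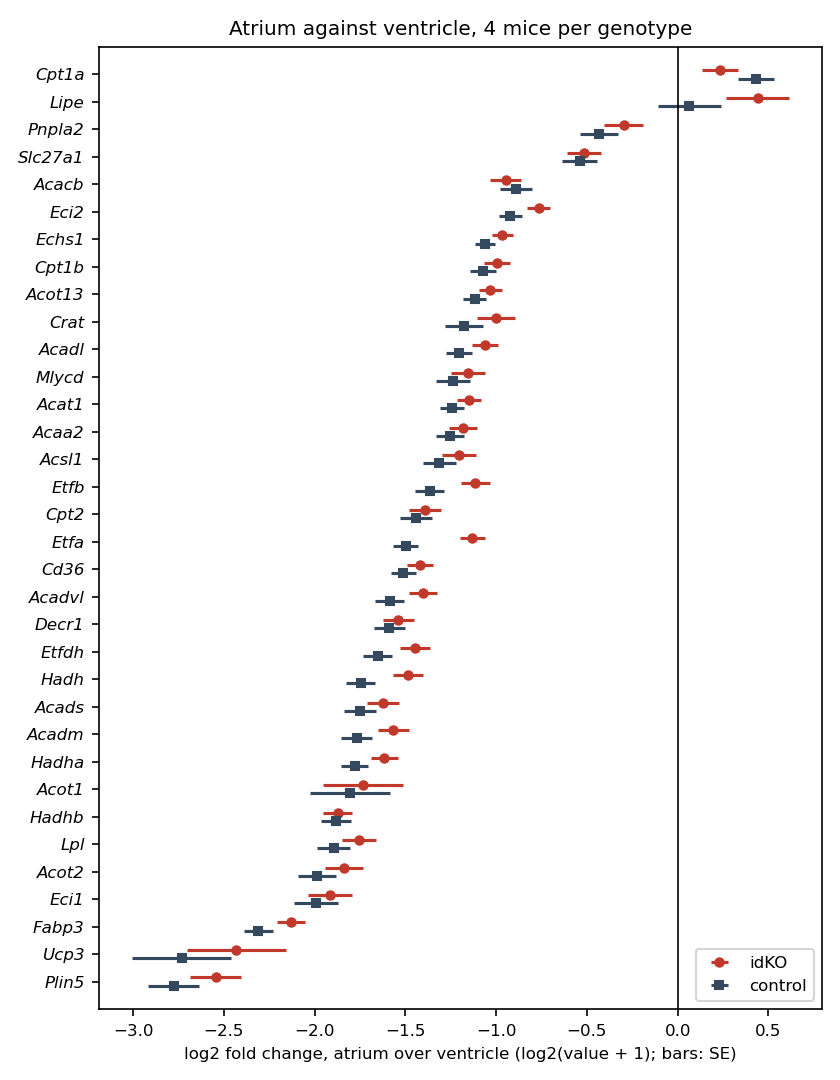
Log2 fold change of atrium over ventricle for the 34 genes, with standard errors, in idKO mice (circles) and control mice (squares), ordered by the control value. Most genes lie between -2 and -1, Plin5 and Ucp3 reach furthest down, and only Cpt1a and Lipe lie right of 0; Etfa shows the widest space between genotypes among the precisely measured genes.

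The lipases stood apart from this pattern. Pnpla2, adipose triglyceride lipase, which starts the breakdown of stored triglyceride, measured 287.6, 301, 408 and 378 in the 4 control atria, against 442, 468, 462 and 467 in control ventricles. It was called lower (log2 fold change -0.43 ± 0.11 SE, limma adjusted p = 0.00196), but on the share of reads the value turned to 0.13 (adjusted p = 0.221). Lipe (ENSMUSG00000003123, chromosome 7, 25379527 to 25398710), the hormone-sensitive lipase that acts next, measured 74.0, 55.4, 118 and 88.8 in idKO atria and 59.3, 60.5, 94.1 and 80.7 in the 4 control atria, against 60.4, 58.9, 57.1 and 61.6 in idKO ventricles and 57.4, 73.8, 69.8 and 77.1 in control ventricles. The ventricles were close together and the atria spread widely. Lipe was called higher in idKO atria than in idKO ventricles (log2 fold change 0.44 ± 0.17 SE, limma adjusted p = 0.0402), a call that was lost without idKO replicate 1, 3 or 4 (adjusted p = 0.0664, 0.268 and 0.115). In control mice it was not called (log2 fold change 0.06 ± 0.17 SE, adjusted p = 0.776). The 8 adipocyte markers also spread widely in atria. Their summed value was 241, 165, 452 and 189 in idKO atria and 125, 91.6, 359 and 331 in control atria. In ventricles the sum was 1.59 to 2.50 in idKO mice and 1.55 to 2.82 in controls. Adipoq and Plin1, which define adipocytes, averaged 39.4 and 38.2 in idKO atria and 32.9 and 28.7 in control atria, against less than 1 in both ventricle groups. The replicate with the highest adipocyte sum was also the highest for Lipe in each genotype, and the part of adipocytes in the level of Lipe was not tested.

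**Figure D3:**
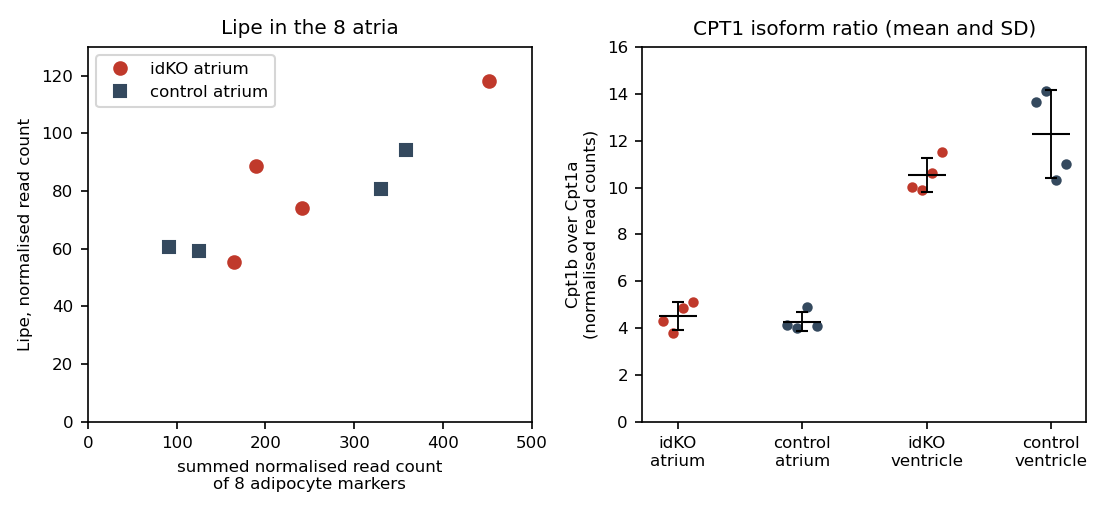
Left, normalised read count of Lipe against the summed normalised read count of 8 adipocyte markers in the 8 atria, where Lipe runs from 55.4 to 118 and the library with the largest marker sum has the most Lipe. Right, ratio of Cpt1b to Cpt1a in each library with mean and SD (n = 4), which stays at or below 5.10 in every atrium and at or above 9.90 in every ventricle.

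Other genes of the pathway, from lists chosen by name, gave a mixed picture between control chambers. Of 23 further genes of acyl-CoA metabolism, which include the peroxisomal Nudt7, 21 were called lower in atria and 0 higher. Ech1, a dienoyl-CoA isomerase, was among those lower (402 in control atria and 1723 in control ventricles, log2 fold change -2.10). Of 13 lipid droplet and triglyceride genes 9 were lower and 0 higher, including Gpam, which starts glycerolipid synthesis (-2.34). Of 16 further uptake, lipolysis and carnitine genes 9 were lower and 4 higher. Of 5 ketone genes 4 were lower and 1 higher, and Bdh1, which oxidises 3-hydroxybutyrate, averaged 17.2 in control atria and 173 in control ventricles. Of 17 peroxisomal rows 8 were lower and 1 higher (Hacl1 has 2 rows). The list of malonyl-CoA, AMPK and pyruvate dehydrogenase kinase genes split, with 7 of 14 lower and 6 higher. Its AMPK subunit gene Prkag2 measured 184 in control atria and 31.8 in control ventricles (log2 fold change 2.50), whereas the kinase gene Pdk4 fell to 335 in control atria, against 1026 in control ventricles.

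Of 15 transcriptional regulators of the pathway, 12 were called lower in control atria and 2 higher. Their gaps were smaller than those of most of the 34 genes: the log2 fold change was -0.62 ± 0.08 SE for Esrra, which encodes ERRα, -0.57 ± 0.11 SE for Ppara and -0.46 ± 0.11 SE for Ppargc1a, which encodes PGC-1α. The widest gap of the 15 was that of Esrrb, at 19.8 ± 1.89 in control atria and 45.8 ± 5.48 in control ventricles (SD, n = 4 each). Its log2 fold change was -1.17 ± 0.09 SE (limma adjusted p = 2.6e-09). Esrra averaged 139 ± 12.2 in control atria and 214 ± 11.9 in control ventricles, Ppara 20.5 ± 2.0 in control atria and 30.8 ± 2.60 in control ventricles, and Ppargc1a 93.2 ± 7.55 in control atria and 129 ± 13.6 in control ventricles (SD, n = 4 each). On the share of reads all-gene values in atria moved up by about as much as the gaps of Esrra, Ppara and Ppargc1a (median 0.51). The gap of Esrrb was wider than that.

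Promoter windows of 300 bases (250 before to 50 after the start site, RefSeq, GRCm38.p6) were found for 27 of the 34 genes. They were searched on both strands for AGGTCA, the half-site bound by nuclear receptors such as PPARα and ERRα, and TGACAG, the core bound by MEIS proteins. AGGTCA lay in 8 of the 27 (29.6%), against 18.1% of 27025 genes with a window. TGACAG lay in 6 of the 27 (22.2%), against 21.6%. The longer forms TCAAGGTCA, AGGTCANAGGTCA and TGATTGACAG, which contain these letters, lay in none of the 27, and in 0.466%, 0.0481% and 0.255% of all genes. Shown are the windows of the gene called between genotypes (Etfa), of the gene that ran against the set between chambers (Cpt1a) and of a gene with a wide gap between chambers (Ucp3), with AGGTCA or TGACAG, on either strand, in capitals. A match describes letters in a window and is not evidence of binding.
Etfa (chr9:55512194-55512493, minus strand): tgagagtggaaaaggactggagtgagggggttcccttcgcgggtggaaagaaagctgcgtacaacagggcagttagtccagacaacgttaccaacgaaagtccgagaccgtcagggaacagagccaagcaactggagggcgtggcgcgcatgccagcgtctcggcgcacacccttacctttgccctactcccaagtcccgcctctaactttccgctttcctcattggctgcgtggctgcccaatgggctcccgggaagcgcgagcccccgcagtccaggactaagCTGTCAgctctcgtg
Cpt1a (chr19:3323051-3323350, plus strand): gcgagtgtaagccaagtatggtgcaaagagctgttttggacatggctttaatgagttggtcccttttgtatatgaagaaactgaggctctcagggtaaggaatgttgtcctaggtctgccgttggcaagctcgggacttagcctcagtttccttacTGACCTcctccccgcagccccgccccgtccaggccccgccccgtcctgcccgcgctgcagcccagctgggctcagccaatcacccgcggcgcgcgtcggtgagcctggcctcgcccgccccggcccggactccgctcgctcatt
Ucp3 (chr7:100472741-100473040, plus strand): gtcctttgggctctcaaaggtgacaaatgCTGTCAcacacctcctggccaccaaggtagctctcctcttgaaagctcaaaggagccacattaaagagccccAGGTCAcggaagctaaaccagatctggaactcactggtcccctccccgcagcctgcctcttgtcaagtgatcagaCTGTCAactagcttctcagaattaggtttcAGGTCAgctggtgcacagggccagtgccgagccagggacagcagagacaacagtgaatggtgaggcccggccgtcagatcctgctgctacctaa

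Etfa has 1 TGACAG, as CTGTCA, 36 bases past the start site. Cpt1a has 1 AGGTCA, as TGACCT, 94 bases before it. Ucp3 has 2 of each. Hadha and Hadhb, which lie head to head, share 228 bases of their windows and have neither motif.

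In the ventricle, where Meis2 was reduced, 1 of the 34 genes fell in idKO mice and 0 rose. The gene was Etfa (ENSMUSG00000032314, chromosome 9, 55454508 to 55512243), the α subunit of the electron transfer flavoprotein. It measured 881, 786, 910.1 and 973 in idKO ventricles, against 1126, 1168, 1090.0 and 1133 in control ventricles. Every idKO ventricle lay below every control, and the mean was 78.6% of control (log2 fold change -0.35 ± 0.07 SE, limma adjusted p = 0.0144). Over all 13144 genes tested, 1.5% were called lower and 0.533% higher, so 1 of 34 called lower is near the background. The Etfa call held on the share of reads (log2 fold change -0.25, adjusted p = 0.0175) and with scaling to cardiomyocyte markers (-0.24, adjusted p = 0.0353). It was lost without a trended prior (adjusted p = 0.106) and without control replicate 4 (adjusted p = 0.0528).

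The partners of Etfa did not pass. Etfb, its β subunit, measured 742, 626, 716 and 773 in idKO ventricles, against 765, 873, 847 and 841 in control ventricles (log2 fold change -0.22 ± 0.07 SE, limma adjusted p = 0.149). One control, replicate 1, lay within the idKO range. Etfdh, which passes the electrons on to ubiquinone, measured 925, 763, 941 and 947 in idKO ventricles, against 1092, 1052, 1038 and 1028 in control ventricles. Its groups did not overlap, and the log2 fold change was -0.24 ± 0.07 SE (limma adjusted p = 0.114; DESeq2 adjusted p = 0.0428). The ratio of Etfa to Etfb reads was 1.19, 1.26, 1.27 and 1.26 in idKO ventricles, against 1.47, 1.34, 1.29 and 1.35 in control ventricles, and the groups did not overlap for this ratio either. The predicted gene Gm45233 shares 617 of the 1164 annotated exon bases of Etfb on the same strand.

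Hadh, the dehydrogenase that carries out the third step of each round for short and medium chains, measured 731, 687, 761 and 832 in idKO ventricles, against 879, 886, 929 and 901 in control ventricles. The groups did not overlap, and the gene missed the threshold (log2 fold change -0.26 ± 0.06 SE, limma adjusted p = 0.0544; DESeq2 adjusted p = 0.00738). The groups did not overlap for 8 of the 34 genes, with idKO below control in each, beside 5.81% of all genes in that direction: Etfa, Etfdh, Hadh, Acsl1, Acadvl, Acadm, Echs1 and Pnpla2. Of these, Acsl1 had a log2 fold change of -0.18 ± 0.06 SE and Pnpla2 of -0.20 ± 0.07 SE. No member had every idKO ventricle above every control, as 3.17% of all genes had.

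The other members differed by little. The log2 fold change was negative for 32 of the 34 genes, with a median of -0.15 beside -0.01 over all genes, and 18 of the 34 had an unadjusted p under 0.05, as had 14.97% of all genes. The 2 positive values were those of Cpt1a and Eci1. Cpt1a measured 89.6, 80.2, 87.1 and 76.1 in idKO ventricles, against 67.6, 66.8, 90.7 and 86.8 in control ventricles. Eci1 measured 461, 341, 476 and 438 in idKO ventricles, against 376, 368, 434 and 416 in control ventricles, and for both genes the groups overlapped. The uptake genes averaged 92.2% (Cd36), 93.6% (Fabp3), 90.8% (Lpl) and 97.9% (Slc27a1) of control. Hadhb, at 99.3% of control, Acaa2, at 99.4%, and Decr1, the dienoyl-CoA reductase for unsaturated chains, at 99.8%, lay nearest to the control level. For these 3 genes the approximate 95% intervals of the log2 fold change lay within the range -0.16 to 0.13. Ucp3 had the lowest mean relative to control. It measured 83.2, 68.1, 120.2 and 141 in idKO ventricles, against 102, 150.3, 175 and 148 in control ventricles, with overlapping groups and a wide error (log2 fold change -0.50 ± 0.20 SE, limma adjusted p = 0.264).

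**Figure D4:**
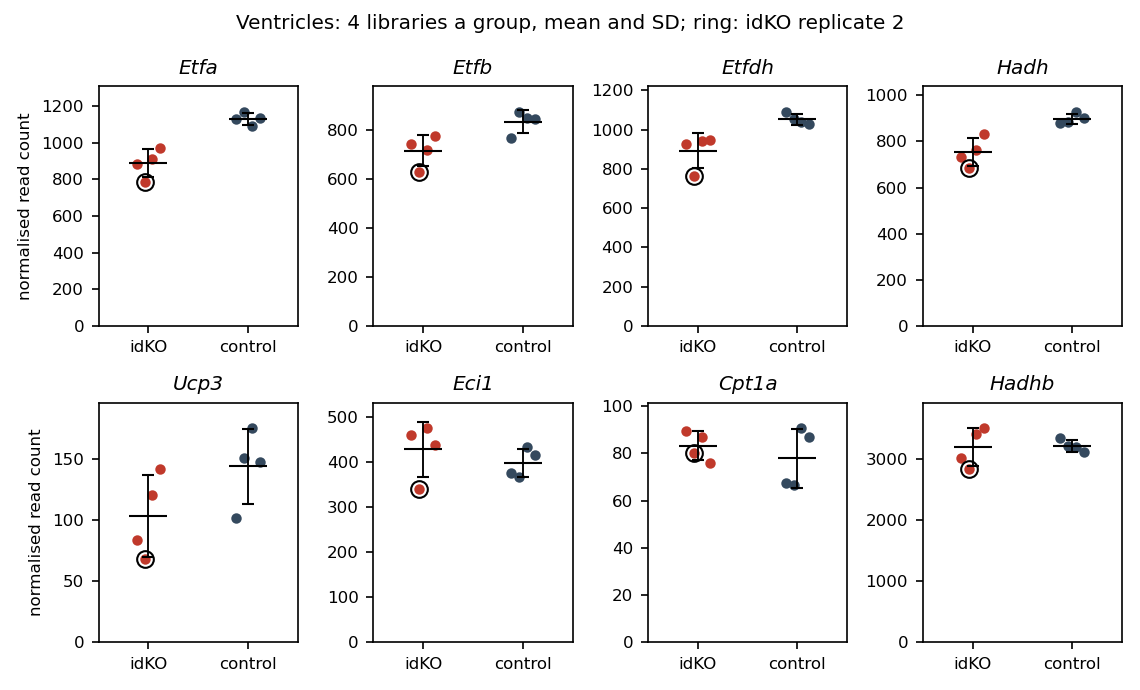
Normalised read count of 8 of the genes in each ventricle, 4 idKO and 4 control libraries, with mean and SD; a ring marks idKO replicate 2. The idKO libraries of Etfa, Etfdh and Hadh all lie below the control libraries, those of the other 5 genes overlap them, and the ringed library is lowest of the 8 in each panel but that of Cpt1a.

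A single animal weighed on these values. The library of idKO ventricle replicate 2 was the lowest of the 8 ventricles for 32 of the 34 genes. The summed value of the 34 genes was 31851 in it, 36058 to 38356 in the other 3 idKO ventricles and 38993 to 39774 in the control ventricles. Without that replicate the median log2 fold change was -0.10 and 27 of the 34 were negative, while Etfa was still called (log2 fold change -0.29, adjusted p = 0.0221). The same library had the lowest cardiomyocyte marker sum, at 102997, against 115727 to 118016 in the other idKO ventricles and 120770 to 125650 in control ventricles. Of the 10 cardiomyocyte markers 1, Ryr2, was called lower in idKO ventricles. The log2 fold change was negative for 9 of these 10 markers, with a median of -0.13, beside -0.15 for the 34 genes. Among the 10 markers 5 had an unadjusted limma p under 0.05, all of them lower, beside 14.97% of all genes in either direction. Groups without overlap were found for 4 markers, again with lower idKO values, beside 5.81% of all genes in that direction. The library of idKO ventricle replicate 2 also had the highest sum of 8 fibroblast markers, at 3345, against 2227 to 2540 in the other idKO ventricles and 2128 to 2418 in control ventricles. The sum of 7 macrophage markers was 307.18 to 378.66 in idKO ventricles, against 271.17 to 291.02 in control ventricles, and the groups did not overlap. Of these 7, Lyz2 was called higher, at 196 ± 22.8 in idKO ventricles and 151 ± 6.98 in control ventricles (SD, n = 4 each; limma adjusted p = 0.0292). Lyz2 was a large part of the sum, which averaged 339 in idKO ventricles and 280 in control ventricles. Mesothelial markers went the other way: all 4 tested were negative (median log2 fold change -0.98), and 1 was called lower. None of 8 fibroblast, 8 endothelial or 7 smooth muscle markers was called, and 7, 6 and 2 of them were positive. The part of cell composition in the lower levels was not tested.

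The scaling moved the ventricular values by about as much as they differed. On the share of reads the median of the 34 genes was -0.05 beside 0.09 over all genes, 26 were negative, and 1 was called, while the calls over all genes turned from 70 higher and 197 lower to 154 higher and 108 lower (1.17% and 0.822%). With scaling to cardiomyocyte markers the median was -0.04 beside 0.10 over all genes, and 23 were negative. That scale called 135 genes higher and 92 lower over all 13144 genes, and 1 of the 34. Under each of the 3 scalings at least 23 of the 34 genes were negative, their median lay below that of all genes and Etfa was called, while the size of the difference and the number of negative genes changed with the scaling.

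**Figure D5:**
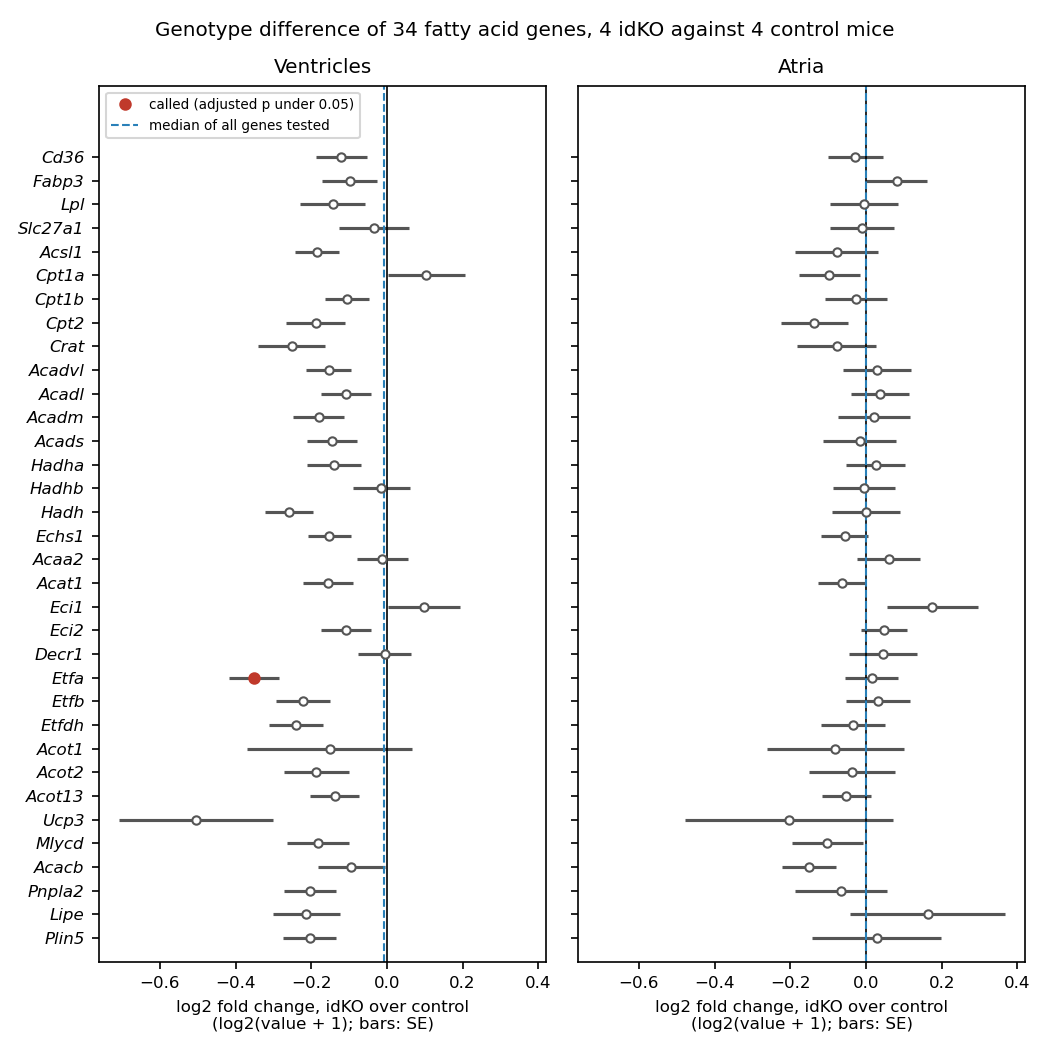
Log2 fold change of idKO over control for the 34 genes in ventricles (left) and atria (right), with standard errors; the dashed line is the median of all genes tested. In ventricles 32 of 34 points lie left of 0 and Etfa alone is called, and in atria the points scatter around 0 with none called.

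In ventricles 10 of the 15 regulators had a negative log2 fold change, with a median of -0.04 and a range from -0.28 to 0.16. Esrra measured 186, 162, 192 and 196 in idKO ventricles, against 219, 216, 197 and 223 in control ventricles, with groups that did not overlap and no call (log2 fold change -0.22 ± 0.07 SE, limma adjusted p = 0.155). Ppara averaged 25.5 ± 4.13 in idKO ventricles and 30.8 ± 2.60 in control ventricles (adjusted p = 0.28), and Ppargc1a 129 ± 25.4 in idKO ventricles and 129 ± 13.6 in control ventricles (adjusted p = 0.97; SD, n = 4 each). Of the 15 regulators none was called. An unadjusted p under 0.05 was found for 3, all 3 of them lower, which is near the 14.97% of all genes. Pdk4, a responsive target of PPARα, spread widely, with 734, 594, 1071 and 1438 in idKO ventricles, against 561, 1271, 1256 and 1017 in control ventricles (adjusted p = 0.903). Slc25a20 measured 257 ± 23.2 in idKO ventricles and 285 ± 12.4 in control ventricles (adjusted p = 0.33).

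Outside the 34 genes, calls in ventricles included 3 further genes of the pathway lists. Lmf1, a factor that lipoprotein lipase needs to fold, fell to 20.9 ± 2.56 in idKO ventricles, against 30.9 ± 4.15 in control ventricles (log2 fold change -0.54 ± 0.12 SE, adjusted p = 0.0294), the 1 call among 16 uptake, lipolysis and carnitine genes. Nudt7, a peroxisomal hydrolase of coenzyme A listed with the acyl-CoA enzymes, fell to 78.3 ± 3.77 in idKO ventricles, against 102 ± 7.89 in control ventricles (log2 fold change -0.38 ± 0.07 SE, adjusted p = 0.0132), the 1 call of 23. Prkab1, an AMPK subunit, fell to 30.8 ± 1.78 in idKO ventricles, against 40.3 ± 2.80 in control ventricles (log2 fold change -0.38 ± 0.08 SE, adjusted p = 0.0296), the 1 call of 14. None of 13 lipid droplet and triglyceride genes and none of 16 peroxisomal genes was called. In each list 4 had an unadjusted p under 0.05, beside 14.97% of all genes.

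In atria, where the transgene was read less and Meis2 was not called, 0 of the 34 genes were called. Over all 14523 genes 0% were called lower and 0.0207% higher, 3 genes in all, while 670 had an unadjusted p under 0.05. None of the 34 did, none had groups that did not overlap (1.3% of all genes had every idKO atrium below every control and 1.52% above), and edgeR and DESeq2 called 0 of them as well. Log2 fold changes ran from -0.20 (Ucp3) to 0.18 (Eci1), with a median of -0.01, and 20 were negative. Etfa measured 388, 374, 445 and 410.2 in idKO atria, against 375, 396, 436 and 391.5 in control atria. Its log2 fold change of 0.01 ± 0.07 SE has an approximate 95% interval of -0.12 to 0.15. Etfb (0.03), Etfdh (-0.03) and Hadh (0.00) also lay close to 0. Acacb had the smallest unadjusted p, 0.0563, at 233, 208, 245 and 223 in idKO atria, against 233, 241, 255 and 280.4 in control atria (log2 fold change -0.15 ± 0.07 SE, limma adjusted p = 0.966). Leaving out 1 library at a time moved the median between -0.07 and 0.04 and the number of negative genes between 7 and 30. The library of idKO atrium replicate 2, from the same mouse as the low ventricle library, was the lowest of its group for 27 of the 34 genes, and control atrium replicate 1 was the lowest of its group for 31. None of the 7 other lists of pathway genes had a member called in atria, and 2 of their genes had an unadjusted p under 0.05.

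Whether the genotype difference itself differed between chambers was tested as an interaction, the idKO effect in atria minus that in ventricles. Limma, edgeR and DESeq2 each called 0 of the 34 genes. Limma gave 3 of them an unadjusted p under 0.05 (Etfa, Hadh and Etfb), beside 6.54% of all genes. Over the whole table limma called 0.269% of 14871 genes higher and 0.0269% lower. The value was positive for 32 genes, with a median of 0.13 beside 0.01 over all genes. On the share of reads it was positive for 23, with a median of 0.05 beside -0.06 over all genes. Etfa had the smallest p, with an interaction of 0.37 ± 0.10 SE (limma adjusted p = 0.216), and it was called with the mouse as a fixed block (adjusted p = 0.0240), a fit that called 102 genes over the whole table in place of 44. Hadh followed (0.26 ± 0.11 SE, adjusted p = 0.715), then Etfb (0.25 ± 0.11 SE, adjusted p = 0.726). For Lipe the value was 0.38 ± 0.25 SE (adjusted p = 0.871), so the call between idKO chambers and the missing call between control chambers are not shown to differ. The ventricle and chamber comparisons share libraries with this test and are not independent of it.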

How the data were processed

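RNA of 16 libraries was analysed, from the atrium and ventricle of 8 mice, with groups taken from the labels. Per the submitters' processing notes the authors used cutadapt and RSEM 1.3.1 with the build GRCm38. The sources used here do not name the tool that scaled the values. What the authors deposited is a normalised signal: every value equals whole reads with 0.5 added, over the effective library size in mega reads (tolerance 0.01, all libraries). RSEM estimates are thus taken as rounded, and RSEM divided the reads of near-identical genes. The library kit is not stated to mark strand, so reads of antisense partners (Acadvl with Dvl2, Lipe and Acsl1 with clone-named genes) cannot be told apart.

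Genes entered a fit when 4 or more of its libraries had 1 CPM, a CPM here being a share of the summed values. Testing used limma 3.58.1 (R 4.3.3) on log2(value + 1) values with a trended prior. Tests were two-sided with Benjamini-Hochberg adjustment over all genes tested, and calls were made at an adjusted p under 0.05. Fold changes are on that scale, which understates low genes. The 95% intervals are approximate: they use the SE with a normal multiplier, which makes them somewhat narrow for 8 libraries. The design allowed for counts, and the form planned for normalised values was used. Ventricles and atria were fitted on their own 8 libraries, and the interaction and chamber contrasts on all 16. Exact permutation over 70 assignments cannot go below p = 0.029. Mice are separate animals. A mouse number pairs the atrium and ventricle of 1 animal: their deviations correlated at 0.177 to 0.302, highest with the own partner in 8 of 8 mice. Replicates differed beyond sampling noise (mean chi-square per gene 7.77 to 16.1). Alternatives were other pseudocounts, filters, scalings, priors and weights, edgeR 4.0.16 (TMM) and DESeq2 1.42.0 on the recovered reads, the mouse block and each library left out. The share-of-reads and cardiomyocyte-marker scalings were added after the data were seen. The fits were tested on simulated data. All 34 genes passed the filter in each fit. The 34 genes, the other lists and the tests were chosen with earlier results of these data known. Named are all 34 genes, up to 4 called genes with the smallest p per other list, and 5 fixed genes (Ppara, Ppargc1a, Esrra, Pdk4, Slc25a20). One result under that rule is not reported here.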

Additional observations from a re-analysis of the deposited data

Results flagged for a closer look

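Of 136 groups of 4 libraries (34 genes in 4 groups), 4 had 1 library set apart from the other 3 by more than Dixon's 95% critical value for 4 values; chance alone sets apart about 5% of groups. Etfdh in idKO ventricle replicate 2 read 762.9, against 925 to 947 in the other idKO ventricles, and this library was the lowest ventricle for 32 of the 34 genes. Acadl in control atrium replicate 1 read 628.6, against 723 to 738 in the other control atria, and this library was the lowest of its group for 31 of the 34. Acadm in control ventricle replicate 3 read 2090, against 1852 to 1889 in the other control ventricles. Ucp3 in control atrium replicate 2 read 25.59, against 18.4 to 19.3 in the other control atria.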

How the results depend on the processing

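In ventricles 267 genes were called, 148 without a filter, 89 without a trended prior, 537 by DESeq2 and 132 to 359 with 1 library left out. Members called lower numbered 1, but 2 with the 5 CPM filter or array weights (Etfa and Hadh). They numbered 3 by DESeq2, 0 without a trended prior and 0 to 2 with 1 library left out. The median of the 34 ran from -0.18 to -0.10 with 1 library left out. Without mitochondrial genes in the total it was -0.09, beside 0.05 over all genes, with 28 negative. It was -0.05 on the share of reads and -0.04 with cardiomyocyte scaling. In atria DESeq2 called 12 genes in place of 3, and with 1 library left out 2 to 4, with medians from -0.07 to 0.04. For the interaction 44 genes were called, 24 without a trended prior, 86 by DESeq2, 102 and 71 with the mouse as a fixed or random replicate block, 22 on the share of reads, 29 with cardiomyocyte scaling and 19 to 39 with 1 mouse left out; 1 member was called, with the fixed block only. The block changed 1 further call among the 34, Cpt1a between idKO chambers. Between control chambers the median was -1.17 without mitochondrial genes in the total, -0.91 on the share of reads and -0.89 with cardiomyocyte scaling, each of the last pair with 2 members called higher; with 1 mouse left out it ran from -1.49 to -1.42, with 7450 to 8417 genes called. Between idKO chambers these medians were -1.04, -0.82 and -0.74, members called higher numbered 2 under each of these but 3 with cardiomyocyte scaling, 2 by edgeR, DESeq2 or either replicate block, 0 without a trended prior and 0 to 2 with 1 mouse left out (medians -1.33 to -1.29; 6895 to 7977 genes called; 31 to 32 members lower). Directions that turned were those of Slc27a1 in control mice (0.0246 on the share of reads, 0.0451 with cardiomyocyte scaling) and idKO mice (0.0412 with cardiomyocyte scaling) and of Pnpla2 in control mice (0.13 and 0.15) and idKO mice (0.18 and 0.26), whose main values were negative. Pnpla2 was not called without mitochondrial genes in the total (adjusted p = 0.266 in control and 0.758 in idKO mice), and in idKO mice also without idKO replicate 1 (0.0725) or 4 (0.13). Depth did not limit these genes: the lowest mean was 5.96, for Acot1 in idKO atria; 4 mice per group limit the precision.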
